A study of Hakea prostrata with 26 samples.

Results

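Mature leaves of Hakea prostrata grown in hydroponics at 1, 10 and 50 uM phosphate (Pi) are described here. They gave 3 of the 26 RNA sequencing libraries of the series, 1 library for each Pi level, and were chosen by their labels for tissue and Pi supply. Pi supply was the treatment that differed between them. The labels give no genotype, leaf age, duration of the supply or number of plants for these libraries, and state that the hydroponic treatments were not replicated. The leaf differences therefore have no replicate check and no p-value, and a difference between libraries cannot be told apart from a difference between plants. White roots from hydroponics at the same 3 Pi levels, cluster roots sampled on 5 days in hydroponics and leaves of plants growing in the field, at stages 1, 2, 3, 4 and M with 3 replicates each, serve as comparisons. The labels do not say what stage M stands for. The study's own title and design concern the greening of field leaves, so the leaf Pi series is a side arm with no stated question of its own.

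Hakea prostrata is a shrub of the Proteaceae, a family of phosphorus-poor soils whose cluster roots release carboxylates that free bound phosphate. Plants short of Pi commonly raise the expression of Pi transporters and phosphatases and exchange phospholipids for galactolipids and sulfolipids, and they reverse this when Pi is supplied. Hakea prostrata is known for a weak ability to limit Pi uptake, so that leaf phosphorus can climb to harmful levels as the supply rises. Much of the RNA of a leaf serves photosynthesis and the plastids. The deposited table names transcripts only by assembly IDs and does not pair them with gene names, so these gene groups could not be examined, and transcripts are given below by ID alone.

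The values were estimated counts for 51697 assembled transcripts of 25047 assembled genes, of which 11687 genes had several isoforms. The 3 leaf libraries held 20283815, 17130939 and 17502190 counts at 1, 10 and 50 uM Pi, more than the white roots (9486439 to 11508234) and the field leaves (1517487 to 11418655). A transcript was examined where at least 1 leaf library had 100 counts, which is 4.93 to 5.84 CPM (the usual count scaled to a common library total) in these libraries. This left 20394 transcripts, while 31303 lay under the minimum and 10854 had no count in any leaf library. In bulk tissue, fewer cells of a type and less RNA per cell cannot be told apart. Levels are given as CPM, and differences as log2 CPM after scaling by the trimmed mean of M-values (TMM) with a prior count of 2. Intervals are exact, at 95%, and cover counting error only.

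The tissue label could be checked only through likeness to other libraries. After thinning to one depth, log2 CPM over 30506 transcripts correlated with the 3 stage M field leaves at a median r of 0.785 for the 1 uM leaf, 0.764 for the 10 uM leaf and 0.679 for the 50 uM leaf. The same leaves correlated with field stage 1 at 0.608, 0.597 and 0.549, and with the white roots at 0.431, 0.440 and 0.455. Each leaf library was thus closer to stage M than to stage 1 or white root, and the 50 uM leaf was the least like the field leaves of both stages. Among themselves, the leaf libraries correlated at 0.908 for 1 and 10 uM, 0.872 for 10 and 50 uM and 0.831 for 1 and 50 uM. Transcripts found mainly in root were near 0 in all of them. Of 151 transcripts with at least 20 CPM in each white root and at most 3 counts in every field leaf, 115, 121 and 117 had no count in the 1, 10 and 50 uM leaf, and 120, 128 and 120 had at most 3. Their summed level was 107, 47.9 and 112 CPM in the leaves and 20000 to 23200 CPM in the white roots. This list was chosen after the values had been seen. These correlations are across transcripts, which are not independent replicates.

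Of the steps between neighbouring Pi levels, that from 10 to 50 uM held the more transcripts that changed in leaf, and the whole range from 1 to 50 uM held more still. "Rose" and "fell" mean here a difference of at least 2-fold between single libraries. From 1 to 10 uM, 1971 transcripts (9.66%) rose and 1966 (9.64%) fell. From 10 to 50 uM, 3218 (15.8%) rose and 2976 (14.6%) fell. Over the whole range from 1 to 50 uM, 3981 (19.5%) rose and 4165 (20.4%) fell, and 1854 (9.09%) rose and 1617 (7.93%) fell by at least 4-fold. Which direction was the more frequent from 1 to 50 uM depended on the scaling. Scaling by library totals moved the median of all transcripts from -0.042 to 0.06 on the log2 scale, and the share of rises among the changed transcripts from 48.9 to 54.4%. The nearest values on either side of the 2-fold line were 1 and 0.9999 for rises and -1 and -0.9998 for falls, with 339 rises and 430 falls within 0.1 inside it and 380 and 463 within 0.1 outside it.

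**Figure D1:**
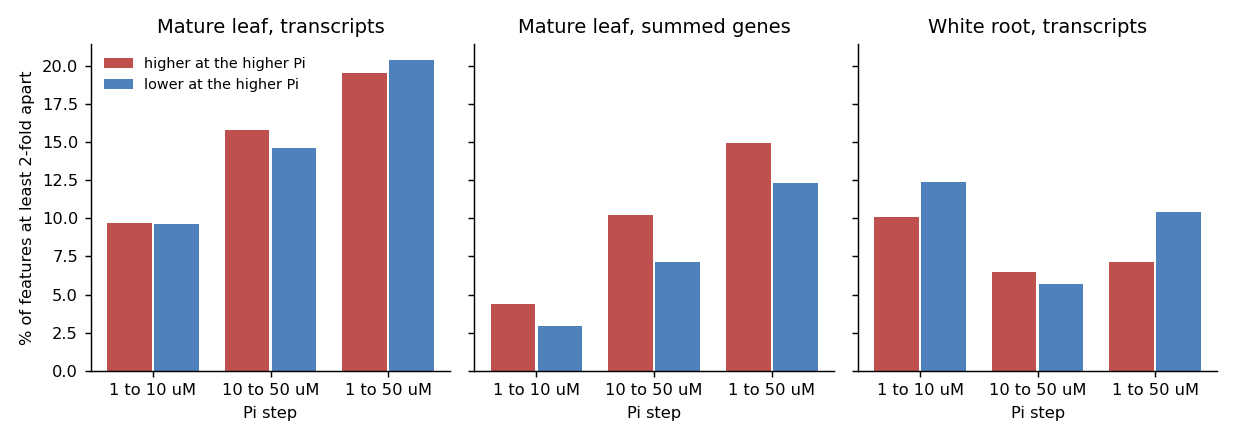
Bars give the percent of features at least 2-fold higher (red) or lower (blue) at the higher Pi level, for leaf transcripts, leaf counts summed per assembled gene and white root transcripts, from 1 library per level. In leaf the 10 to 50 uM step exceeds the 1 to 10 uM step (15.8 and 14.6% against 9.66 and 9.64%), whereas in white root the 1 to 10 uM step is the larger.

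Because the isoforms of a gene share reads, the counts were also summed per assembled gene. Of 12708 genes, 556 (4.38%) rose and 372 (2.93%) fell from 1 to 10 uM, and 1299 (10.2%) rose and 909 (7.15%) fell from 10 to 50 uM. From 1 to 50 uM, 1897 (14.9%) rose and 1566 (12.3%) fell. Large changes of whole genes were mostly rises, as 668 genes (5.26%) rose by at least 4-fold and 249 (1.96%) fell, a ratio of 2.68. That excess was 717 to 208 with library totals and 668 to 248 with DESeq2 size factors. The 4450 transcripts that were the only isoform of their gene showed the same lean, with 322 (7.24%) rising and 123 (2.76%) falling by at least 4-fold. Transcripts of genes with several isoforms did not, with 1532 (9.61%) rising and 1494 (9.37%) falling by at least 4-fold.

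The genes below had the largest summed changes from 1 to 50 uM among genes that moved the same way by at least 1.5-fold at both steps, and were picked after their values were seen. The risers reached high levels from little or no signal, while the fallers began at low levels and were without counts at 50 uM. The gene TRINITY_DN6026_c0_g2 stood at 2.76 CPM at 1 uM, 41.4 CPM at 10 uM and 2350 CPM at 50 uM. Its CPM was 851-fold higher at 50 than at 1 uM (interval 655 to 1130). In white root it was at 5.21, 4.26 and 12.1 CPM at the same Pi levels, and in the stage M field leaves at 0.986, 2.10 and 1.51 CPM. The 50 uM leaf thus lay far above every one of these libraries. The gene TRINITY_DN2554_c0_g1 had no count in the 1 uM leaf, 2.45 CPM at 10 uM and 82.8 CPM at 50 uM, at least 560-fold higher than the 3-count floor of the 1 uM library. White root held it at 141, 300 and 369 CPM. In the other direction, TRINITY_DN9981_c0_g1 was at 7.79 and 4.73 CPM at 1 and 10 uM and had no count at 50 uM, at least 45.4-fold lower. It kept 7.18 to 8.88 CPM in stage M field leaves and 4.87 to 10.4 CPM in white root. The gene TRINITY_DN59252_c0_g1 was at 5.92, 1.34 and 0 CPM, at least 34.5-fold lower at 50 uM. It had 9.99, 3.48 and 0.632 CPM in white root at 1, 10 and 50 uM, so it stood lower at each higher Pi level in both tissues.

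Stepwise patterns were sorted into 8 classes. Changes of at least 1.5-fold in the same direction at both steps counted as monotonic. A first-step change was at least 2-fold from 1 to 10 uM with a flat step from 10 to 50 uM, that is, a log2 change within 0.32 either way, and a second-step change was the reverse. A peak or dip was at least 2-fold in opposite directions at the steps. Both steps share the 10 uM library, so an error in that library pushes them in opposite directions and favours peaks and dips. In all, 6083 transcripts (29.8%) fell into a class and 14311 (70.2%) into none.

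**Figure D2:**
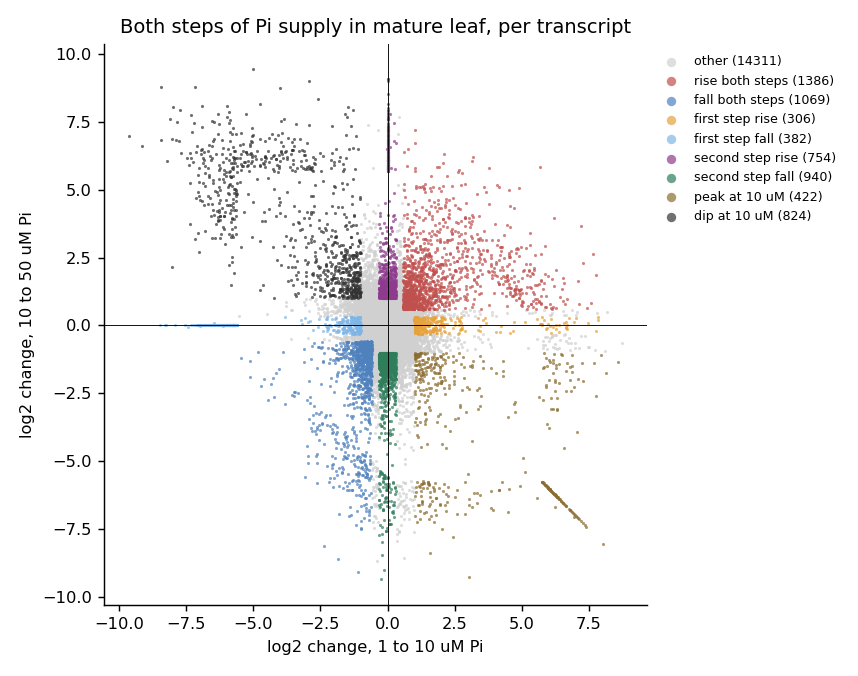
Each point is 1 of 20394 leaf transcripts, with its log2 change from 1 to 10 uM Pi on the x axis and from 10 to 50 uM on the y axis, coloured by pattern class with the number of transcripts. The straight bands at the edges are transcripts without counts in 1 or more libraries, whose positions depend on the prior count.

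Under these class rules, monotonic change was the most frequent pattern at the minimum of 100 counts. The rules ask for 1.5-fold at each step of a monotonic change and for 2-fold in the other classes, so the order of class sizes depends on them. With a minimum of 10 counts, peaks (2848) and dips (2944) outnumbered rises (2408) and falls (1992) at both steps. Rises at both steps numbered 1386 transcripts (6.80%) and falls at both steps 1069 (5.24%). Of all 3981 transcripts that rose from 1 to 50 uM, 2905 (73.0%) moved up at both steps by any amount and 2507 (63.0%) took the larger step from 10 to 50 uM, with median steps of 0.69 and 1.18. Of the 4165 that fell, 3070 (73.7%) moved down at both steps and 3012 (72.3%) took the larger step from 10 to 50 uM, with medians of -0.54 and -1.12. Both sets were chosen by the sum of these steps, which favours steps in the same direction. Summed per gene, 670 genes rose and 339 fell at both steps. For 736 (53.1%) of the monotonic risers and 325 (30.4%) of the monotonic fallers, the summed gene was in the same class.

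Among monotonic risers whose gene followed, the transcript TRINITY_DN2554_c1_g2_i2 had no count at 1 uM, 5.55 CPM (4.49 to 6.78) at 10 uM and 327 CPM (319 to 336) at 50 uM. That is at least 2210-fold higher at 50 than at 1 uM, and the gene as a whole went from 3.25 to 19.4 and 765 CPM. It was absent from the counts of all 3 stage M field leaves, while white root held it at 56.8, 88.0 and 98.0 CPM. The transcript TRINITY_DN1288_c0_g1_i15 had no count at 1 uM, 16.1 CPM (14.3 to 18.1) at 10 uM and 210 CPM (204 to 217) at 50 uM, at least 1420-fold higher. In white root it ran the other way, at 16.2, 0.342 and 0.512 CPM.

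Among monotonic fallers, TRINITY_DN3578_c0_g1_i1 was at 296 CPM (288 to 303), 71.1 CPM (67.1 to 75.1) and 1.38 CPM (0.879 to 2.04) at 1, 10 and 50 uM. Its level was 216-fold lower at 50 than at 1 uM (interval 145 to 337), and the summed gene moved less, from 944 to 649 and 371 CPM. It had no count in any white root and 382 to 432 CPM in stage M field leaf, so the 1 uM leaf was the closest to the field. The transcript TRINITY_DN149_c0_g1_i25 was at 163 CPM (158 to 169), 33.2 CPM (30.5 to 36.0) and an estimated count that rounds to 0, at least 951-fold lower at 50 uM. Its gene, with 10 isoforms, went from 1290 to 879 and 423 CPM.

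Changes confined by definition to the step from 1 to 10 uM were the rarest one-way pattern. They numbered 306 rising transcripts (1.5%) and 382 falling ones (1.87%), with 71 and 72 summed genes. The gene followed for 52 (17.0%) of these risers and 48 (12.6%) of these fallers. The transcript TRINITY_DN7050_c0_g1_i14, the only isoform of its gene, was at 0.197 CPM (0.0537 to 0.505), 5.84 CPM (4.75 to 7.10) and 5.94 CPM (4.86 to 7.20). This was 29.6-fold higher at 10 than at 1 uM (11.2 to 111) and then level, at 1.02-fold (0.766 to 1.35). The transcript TRINITY_DN28498_c0_g1_i7 had 0.345, 4.85 and 5.94 CPM and was 14.0-fold higher at 10 uM (6.52 to 36.0). The transcript TRINITY_DN344_c0_g1_i31 had 36.8 CPM (34.2 to 39.5) at 1 uM and no count at 10 or 50 uM, at least 210-fold lower at 10 uM. White root also held most of it at 1 uM, with 132, 16.1 and 18.0 CPM. The transcript TRINITY_DN57172_c0_g2_i1 had 15.6 CPM (14.0 to 17.4) at 1 uM and no count at either higher level, at least 89.2-fold lower at 10 uM.

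Changes from 10 to 50 uM with a flat first step were more frequent, with 754 rising transcripts (3.70%) and 940 falling ones (4.61%), and 368 and 386 summed genes. The gene followed for 297 (39.4%) of these risers and 326 (34.7%) of these fallers. The transcript TRINITY_DN10436_c0_g1_i29 had no count at 1 or 10 uM and 60.6 CPM (57.0 to 64.4) at 50 uM, at least 346-fold higher than at 10 uM. Its gene stood at 181, 165 and 355 CPM, so most of that gene's signal came from other isoforms. The transcript TRINITY_DN5107_c0_g1_i10 had no count at 1 or 10 uM and 27.2 CPM (24.8 to 29.8) at 50 uM, and its gene went from 2.81 and 3.21 to 64.8 CPM. The transcript TRINITY_DN3269_c4_g1_i12 had 20.9 CPM (18.9 to 22.9), 18.1 CPM (16.1 to 20.2) and no count, at least 106-fold lower at 50 than at 10 uM. The transcript TRINITY_DN6465_c0_g2_i1 had 13.3, 12.3 and 0 CPM, at least 71.9-fold lower at 50 uM. Its other isoforms carried the remaining 4.75 CPM of the gene at 50 uM.

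Peaks and dips at 10 uM were mostly changes of isoforms rather than of whole genes. There were 422 peaks (2.07%) and 824 dips (4.04%), but only 37 and 111 summed genes, and the gene followed for 31 (7.35%) of the peaks and 91 (11%) of the dips. The transcript TRINITY_DN21610_c0_g1_i2, the only isoform of its gene, was at 0.493 CPM (0.236 to 0.907), 16.3 CPM (14.4 to 18.3) and 2.17 CPM (1.54 to 2.98). It had no count in the white roots, the stage 1 field leaves or the stage M field leaves. The transcript TRINITY_DN101591_c0_g1_i3 had 10.7 CPM (9.24 to 12.4) at 10 uM and no count at 1 or 50 uM. Of the dips, TRINITY_DN1929_c0_g1_i35 was at 6.70, 0.0473 and 6.12 CPM, 115-fold lower at 10 than at 1 uM with a wide interval (20.3 to 4570). The transcript TRINITY_DN11947_c0_g1_i5 was at 2.37 CPM (1.74 to 3.14), 0 and 7.37 CPM (6.15 to 8.76).

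**Figure D3:**
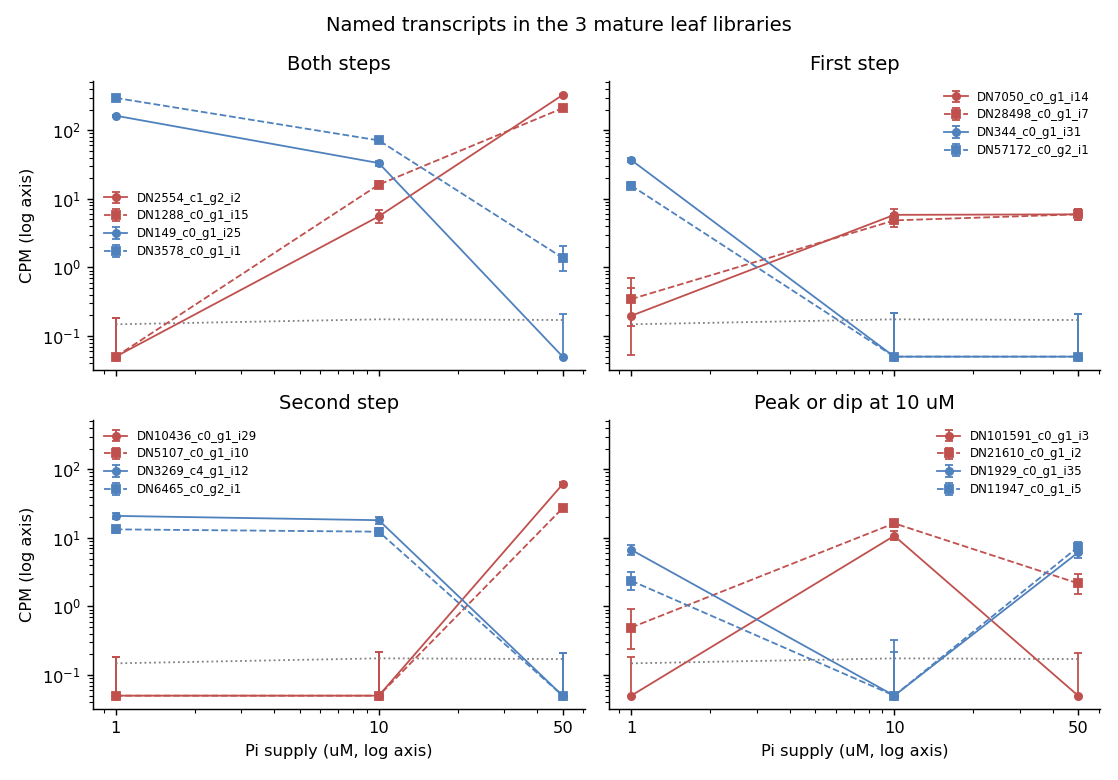
Lines give CPM (log axis) at 1, 10 and 50 uM Pi (log axis) for the 2 transcripts named in each class and direction, with exact 95% counting intervals from 1 library per level and the shared start TRINITY_ of each ID left out. Values below 0.05 CPM are drawn at 0.05, and the dotted line is the level of 3 counts.

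Several of the largest transcript changes were in isoforms of a gene whose total moved little. Of the 1532 transcripts with sister isoforms that rose by at least 4-fold from 1 to 50 uM, 791 (51.6%) belonged to a gene that rose by at least 2-fold and 288 (18.8%) to a gene that was flat by the same limit of 0.32. Of the 1494 that fell by at least 4-fold, the gene fell for 523 (35.0%) and was flat for 345 (23.1%). Of the genes with several isoforms, 7967 had at least 1 transcript that was examined. In 243 of these, 1 isoform rose and another fell by at least 4-fold, and in 82 of the 243 the sum was flat. The gene TRINITY_DN939_c0_g1 shows this form of change. Its sum was 4070, 4120 and 3840 CPM. Its isoform TRINITY_DN939_c0_g1_i2 had no count at 1 or 10 uM and 58.2 CPM (54.6 to 61.8) at 50 uM. Its isoform TRINITY_DN939_c0_g1_i21 had 59.0 CPM (55.7 to 62.5), 57.0 CPM (53.5 to 60.7) and a count that rounds to 0. The transcript TRINITY_DN3223_c0_g1_i26 went from 0 to 4.26 and 46.6 CPM in a gene at 209, 264 and 240 CPM. The transcript TRINITY_DN7613_c0_g2_i16 went from 54.8 and 44.7 CPM to 0 in a gene at 157, 185 and 187 CPM. Whether reads were assigned to the right isoform was not tested.

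At 2-fold, rises and falls were about equally frequent except among the most abundant transcripts. Among transcripts with a mean leaf count under 200, 27.8% rose and 27.6% fell from 1 to 50 uM. Such a transcript could pass the minimum of 100 counts through the library where it was high, which favours changes in this group. From 200 to 1000 counts the shares were 14.9 and 15.8%, and from 1000 to 5000 counts 13.6 and 15.5%. At 5000 counts and above, 47 of 411 transcripts (11.4%) rose and 112 (27.3%) fell, and the median change was -0.34. By at least 4-fold, 13 (3.16%) rose and 13 (3.16%) fell in that group. The 100 most abundant transcripts of a leaf took 24.7, 23 and 19.4% of its counts at 1, 10 and 50 uM. The 1854 transcripts that rose by at least 4-fold took 0.790, 2.12 and 9.14% of the counts, and the 1617 that fell took 5.27, 3.25 and 0.869%. Of the former, 524 (28.3%) had no count at 1 uM, and of the latter, 582 (36.0%) had none at 50 uM. At 10 uM, 1343 of the risers and 1069 of the fallers lay between their levels at 1 and 50 uM. The choice of wide changes from 1 to 50 uM favours this.

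The most abundant transcripts of the stage M field leaves mostly stood lower in leaf at 50 than at 1 uM Pi, nearly all by less than 4-fold. Of the 100 transcripts with the highest stage M level, a list drawn from field libraries after the data had been seen, 48 fell and 4 rose by at least 2-fold from 1 to 50 uM, while 20.4% fell and 19.5% rose over all transcripts. Among leaf transcripts with a mean of at least 5000 counts, the corresponding shares were 27.3 and 11.4%. The median change was -0.94, against -0.042 over all transcripts, and 89 of 100 were below 0. Together they took 20.5% of the counts at 1 uM, 18.4% at 10 uM and 12.8% at 50 uM, compared with 53.3 ± 6.29% (SD, n = 3) in stage M field leaf and 8.11 ± 0.427% (SD, n = 3) in stage 1. The top 2 were single isoforms. The transcript TRINITY_DN307550_c0_g1_i1 took 0.891, 0.815 and 0.344% of leaf counts at 1, 10 and 50 uM, and 15.9, 16.4 and 10.1% in the stage M replicates. The transcript TRINITY_DN482036_c0_g1_i1 took 0.794, 0.743 and 0.285% in the Pi series and 14.0, 14.3 and 10.4% at stage M. Both were nearly level from 1 to 10 uM, at -0.21 and -0.17, and their log2 changes were -1.28 and -1.42 from 10 to 50 uM.

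No replicate of a hydroponic leaf exists, so the nearest measured spread is that between replicate field leaves, which came from other plants in other conditions. All libraries were thinned to 1517487 counts and a transcript entered a pair if either library held at least 50 of its counts. The leaf pair at 1 and 10 uM differed by at least 2-fold in 6.84% of transcripts, the pair at 10 and 50 uM in 21.7% and the pair at 1 and 50 uM in 35.4%. Replicate pairs of one field stage differed in 3.94 to 23.5%, with a median of 6.25% over 15 pairs. The leaf step from 1 to 10 uM was thus within the replicate range, above 10 of 15 pairs and, for summed genes, above 5 of 15. The step from 10 to 50 uM was above 13 of 15 replicate pairs and the full range above all 15. Both high replicate pairs included stage 4 replicate 2, and without that library the highest was 11.4%. White root pairs differed in 19.8% (1 and 10 uM), 8.53% (10 and 50 uM) and 14.7% (1 and 50 uM).

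**Figure D4:**
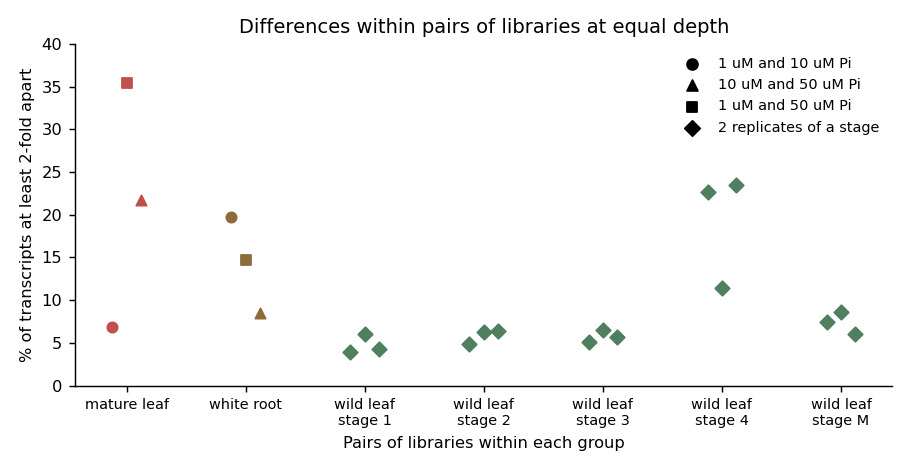
Each point is a pair of libraries thinned to the same total, and the y axis is the percent of transcripts at least 2-fold apart. Leaf at 1 and 50 uM lies highest at 35.4%, leaf at 1 and 10 uM (6.84%) lies among the field replicate pairs, and 2 of the 3 stage 4 pairs stand at 22.7 and 23.5%.

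White root at the same Pi levels shows whether the leaf differences have a counterpart below ground. The root libraries were not used to choose the leaf transcripts, but they too are single. Of 20323 root transcripts, 2057 (10.1%) rose and 2528 (12.4%) fell from 1 to 10 uM, 1316 (6.48%) rose and 1153 (5.67%) fell from 10 to 50 uM, and 1446 (7.12%) rose and 2110 (10.4%) fell from 1 to 50 uM. Of the 14695 transcripts with enough counts in both tissues, 735 (5%) rose and 1183 (8.05%) fell in root from 1 to 50 uM. Of the 3981 leaf risers, 2476 were among them, and 300 (12.1%) rose and 269 (10.9%) fell in root. Both shares lay above those of all 14695 transcripts, which were not matched to the leaf risers for abundance. Of the 4165 leaf fallers, 2554 were among them, and 148 (5.79%) rose and 296 (11.6%) fell in root. Monotonic leaf risers numbered 798 in both tissues, and 142 (17.8%) rose and 91 (11.4%) fell in root. Of 647 monotonic leaf fallers, 36 (5.56%) rose and 92 (14.2%) fell in root. As a share of each list, 300 is 12.1% of the leaf risers and 40.8% of the root risers, and 296 is 11.6% of the leaf fallers and 25% of the root fallers. Across the transcripts in both tissues, the changes correlated only weakly (r = 0.0948).

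For summed genes, each list held more root changes in its own direction than in the other. Of 10975 genes with enough counts in both tissues, 365 (3.33%) rose and 624 (5.69%) fell in root. Among 1518 leaf risers 178 (11.7%) rose and 117 (7.71%) fell, and among 1142 leaf fallers 28 (2.45%) rose and 145 (12.7%) fell. For transcripts with at least 10 counts, rises in root did not outnumber falls among leaf risers, as 1071 rose and 1367 fell. With library totals in place of TMM, 301 rose and 302 fell. Shares over all transcripts are not given for these settings, so the counts cannot be set against that background. Whether the shares of the leaf lists differ from those of all features beyond the spread between plants was not tested, as neither tissue has replicates.

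Cluster roots are set beside white roots as a second view of the leaf lists. Over 15358 transcripts, 770 (5.01%) were at least 2-fold higher and 1152 (7.50%) lower in the mean of the 5 cluster root libraries than in the mean of the 3 white roots. Of the 2637 leaf risers among them, 224 (8.49%) were higher and 341 (12.9%) lower in cluster root. Of the 2721 leaf fallers, 197 (7.24%) were higher and 247 (9.08%) lower. All 4 shares lay above those of the 15358 transcripts. These were not matched to the leaf lists for abundance, and whether abundance accounts for the higher shares was not tested.

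Field leaves from stage 1 to stage M are a replicated comparison, and they were not used to choose the Pi transcripts. For edgeR's quasi-likelihood test, the 15 field libraries were fitted by stage, without pairing them by replicate number. In it, 5456 of 31067 transcripts (17.6%) rose and 8371 (26.9%) fell from stage 1 to M at a Benjamini-Hochberg adjusted p under 0.05. Of these transcripts, 19190 were also examined in the Pi series, and 4962 (25.9%) of those rose and 4752 (24.8%) fell. The leaf lists departed from this in opposite ways. Of the 3984 leaf fallers tested, 1422 (35.7%) rose and 601 (15.1%) fell over field growth, with a median log2 change of 0.44. Of the 3221 leaf risers tested, 472 (14.7%) rose and 958 (29.7%) fell, with a median of -0.59. The median over the 19190 was -0.08. A further 760 leaf risers and 181 leaf fallers had too few field counts to test. Among transcripts lower at 50 uM Pi, the share that gained during leaf growth in the field thus lay above that of all 19190, and among transcripts higher at 50 uM it lay below. For Pi changes of at least 4-fold, the gap was smaller in part. Of 1491 such fallers tested, 424 (28.4%) rose and 212 (14.2%) fell over field growth, with a median of 0.27. Of 1233 such risers, 182 (14.8%) rose and 310 (25.1%) fell, the latter near the 24.8% of all 19190, with a median of -0.79.

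The classes differed in their shares of field calls, and among first-step fallers the share that rose was not above that of all 19190. A call also depends on the field counts of a transcript, for which neither the leaf lists nor the classes were matched. Whether few field counts lowered some of these shares was not tested. Of 1008 monotonic fallers tested, 400 (39.7%) rose and 132 (13.1%) fell over field growth, and of 914 second-step fallers 315 (34.5%) rose and 176 (19.3%) fell. Of 1008 monotonic risers, 193 (19.1%) rose and 285 (28.3%) fell, and of 604 second-step risers 76 (12.6%) rose and 202 (33.4%) fell. Of 270 first-step risers, 33 (12.2%) rose and 76 (28.1%) fell. Of 344 first-step fallers, 64 (18.6%) rose and 49 (14.2%) fell, both shares below the 25.9 and 24.8% of all 19190. Their median was -0.18, and 231 passed in neither direction. Of 359 peaks 30 (8.36%) rose and 54 (15%) fell, and of 701 dips 69 (9.84%) rose and 154 (22%) fell. The monotonic faller TRINITY_DN3578_c0_g1_i1 was at 114 ± 4.34 CPM (SD, n = 3) at stage 1 and 415 ± 28.8 CPM (SD, n = 3) at stage M, a log2 change of 3.09 with a standard error of 0.23 (edgeR adjusted p = 2.43e-07). Read from the field side, 1422 (28.7%) of the 4962 field risers fell and 472 (9.51%) rose with Pi, against 20.8 and 16.8% of all 19190. Of the 4752 field fallers, 601 (12.6%) fell and 958 (20.2%) rose with Pi.

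**Figure D5:**
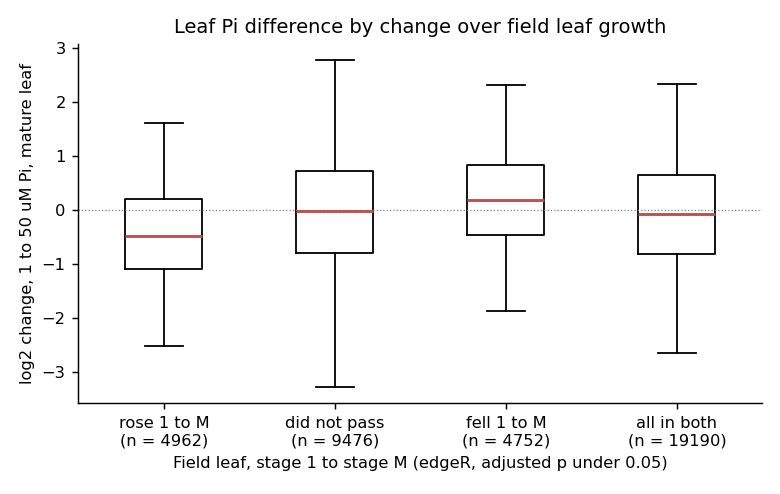
Boxes give the log2 change from 1 to 50 uM Pi in hydroponic mature leaf (y axis) for transcripts grouped by their edgeR result from field stage 1 to stage M, with the median in red, the quartiles as box and the central 90% as whiskers. The median is -0.48 for field risers, 0.18 for field fallers and -0.08 for all 19190 transcripts.

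The levels of the strongest risers and fallers in other tissues completed the description. The median transcript among the 4-fold risers was at 1.02, 4.58 and 14.5 CPM at 1, 10 and 50 uM. The same set had a median of 0.334 to 0.580 CPM in stage M field leaf, 1.94 to 2.27 CPM at stage 1 and 4.35 to 6.25 CPM in white root. Over all tested transcripts these medians were 6.40 to 8.81 CPM at stage M, 17.2 to 17.9 CPM at stage 1 and 15.2 to 17.5 CPM in white root. No count in any stage M replicate was found for 395 (21.3%) of the 4-fold risers and 112 (6.93%) of the 4-fold fallers. Among all tested transcripts it was 878 (4.31%). The risers were chosen for a low level at 1 uM beside 50 uM, and 524 (28.3%) had no count at 1 uM. Whether their low levels in field leaf follow from that choice was not tested. Of the 4-fold risers, 3 were on the list of 151 transcripts found mainly in root, and of the 4-fold fallers 1. On that list, 120 transcripts had at most 3 counts in the 50 uM leaf, so few of them could be risers. The 4-fold fallers had a median of 10.2, 6.84 and 0.904 CPM in the Pi series and 3.79 to 5.15 CPM in stage M field leaf. They took 4.39 to 4.95% of stage M counts, beside 5.27, 3.25 and 0.869% in the 1, 10 and 50 uM leaf. The risers took 0.939 to 2.11% of stage M counts, beside 0.790, 2.12 and 9.14% in the same leaves. Both sets were chosen by their values at 1 and 50 uM, so their shares in those leaves are pushed apart by the choice.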

How the data were processed

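Per the labels' protocols, ribosomal RNA was removed from total RNA of Hakea prostrata leaves and roots, and stranded libraries were made. The authors deposited estimated counts per assembled transcript. Tools named in the submitters' processing notes, which give neither role nor order, are kallisto (no version), DESeq2 1.30.1 and Trim Galore 0.6.6. The assembly is not given in the sources used here. Isoforms share reads, so the estimate for 1 isoform of several is uncertain. Lists of phosphate starvation, photosynthesis and ribosomal genes could not be matched, as the table holds IDs without names, and were not analysed here.

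From these counts, log2 CPM was computed with TMM over the 3 leaf libraries and a prior count of 2, for transcripts with at least 100 counts in 1 library. A fold against a library at 0 counts is a lower bound set at 3 counts in that library, and estimated counts were rounded for folds, intervals and tests. Depth was 17130939 to 20283815 counts in the leaf libraries, so 3 counts stood for 0.148 to 0.175 CPM. For the field leaves, edgeR's quasi-likelihood model (robust) was fitted to 15 libraries by stage, with filterByExpr and 10 residual degrees of freedom, and Benjamini-Hochberg adjustment. Per the labels' protocols, separate plants gave the replicates. Versions were edgeR 4.0.16 and limma 3.58.1 in R 4.3.3, with DESeq2 1.42.0 as an alternative, and the fits were tested on simulated data. Alternatives were other scalings, prior counts and count minimums, thinning, summed genes and left-out libraries. Rounded totals of white root at 1 and 10 uM were equal (11508234), but the libraries differed in 90.9% of values and both were kept.

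Named transcripts are the 2 with the largest change in each class and direction whose summed gene is in the same class, and the 2 per direction whose gene moved by less than 0.32 on the log2 scale. The leaf libraries, their classes and the lists were chosen with earlier results of these data known. The largest summed genes, the root list and the stage M list were chosen after their values were seen. Replicate numbers of field leaves were checked for pairing. In 30 pairs of libraries with one number, r between deviations from the stage mean was 0.117 to 0.393, and in 60 pairs with different numbers it was -0.264 to -0.0151, so samples with one number were taken as paired. The field fit reported in the Results was by stage only and did not use this pairing. Calls from a fit with a replicate block are given below.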

Additional observations from a re-analysis of the deposited data

How the results depend on the processing

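The leaf counts kept within 1.5 times under thinning, a prior count of 10, library totals, size factors from DESeq2 and TMM that left out the 20 most abundant transcripts, and moved with the count minimum and with summing. With at least 10 counts, 9158 rose and 9160 fell from 1 to 50 uM, 6618 and 6523 from 1 to 10 uM, and 8166 and 7783 from 10 to 50 uM. With at least 500 counts these were 1445 and 1546, 394 and 266, and 968 and 884, and summed genes gave 1897 and 1566, 556 and 372, and 1299 and 909. From 1 to 10 uM, the share of rises among changes was 50.1% as reported, 59.7% with at least 500 counts and 59.9% for summed genes. The classes rise both, fall both, first rise, first fall, second rise, second fall, peak and dip held 2408, 1992, 879, 1918, 2495, 1649, 2848 and 2944 transcripts with at least 10 counts, 562, 398, 46, 37, 270, 347, 18 and 71 with at least 500, and 670, 339, 71, 72, 368, 386, 37 and 111 summed genes. Peaks and dips were thus the most frequent classes with at least 10 counts. These alternatives test other numbers of features by construction, and any further cause was not tested.

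Leaf risers that rose and fell in white root, then leaf fallers that did so, numbered 1071, 1367, 783 and 1497 with at least 10 counts, 76, 41, 21 and 54 with at least 500, and 178, 117, 28 and 145 as genes. Leaf risers higher and lower in cluster root, then fallers, numbered 59, 60, 41 and 39 with at least 500 counts, and leaving out each cluster root day gave 200 to 286, 314 to 376, 183 to 228 and 223 to 284. The percent past 2-fold for leaf at 1 and 10, 1 and 50, and 10 and 50 uM was 3.12, 41.0 and 22.8 with at least 200 thinned counts, 23.6, 43.8 and 34.7 at the libraries' own depth, and 3.22, 27.0 and 15.2 for summed genes. The field replicate pairs had medians of 4.71, 11.5 and 3.65 and highest values of 25.9, 23.7 and 17.4 under these settings, so the 1 and 10 uM pair lay below the field median in the first and last, and the 10 and 50 uM pair below the highest field pair in both. Leaving out each field replicate gave a median of 6.10 to 6.38 and a highest pair of 11.4 to 23.5, the lowest without stage 4 replicate 2.

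Stage 1 to M calls with the replicate block, which follows the pairing of the samples, were 5868 and 8900 over all transcripts, 526 and 1021 among leaf risers and 1494 and 660 among leaf fallers, all within 1.5 times of the fit without it. DESeq2 gave 5883 and 9731, 524 and 1094, and 1487 and 734. Leaving out each replicate gave 4749 to 5666 rises and 7126 to 8861 falls in all, 402 to 514 and 841 to 999 among leaf risers, and 1283 to 1452 and 508 to 649 among leaf fallers. As summed genes, 784 leaf fallers rose and 296 fell. The 20 named transcripts had 120 alternatives in all, of which 89 stayed within a limit set by counting error, 28 moved and 3 reversed. Among those that moved, TRINITY_DN10436_c0_g1_i29 went from 9.07 to 0.86 when summed per gene. The 3 reversed when summed per gene, TRINITY_DN11947_c0_g1_i5 from 1.48 to -0.08, TRINITY_DN939_c0_g1_i2 from 9.01 to -0.2 and TRINITY_DN7613_c0_g2_i16 from -9.03 to 0.14. Of these, TRINITY_DN939_c0_g1_i2 and TRINITY_DN7613_c0_g2_i16 had been named because their summed genes were flat. The 4-fold split of summed genes under other scalings was added after seeing the data. With 1 library per Pi level, depth limits counting error but says nothing of the spread between plants, and transcripts under 100 counts were not described.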
